A study of Komagataella phaffii GS115 with 9 samples.

Results

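Dihydroxyacetone synthase is represented in *P. pastoris* by a pair of genes, *DAS1* (gene-PP7435_CHR3-0352) and *DAS2* (gene-PP7435_CHR3-0350), which are 2 of the 5557 features in the deposited RNA-seq table. They were taken by their locus tags, and the rule has no threshold on a measured value, but the pair was picked with earlier results of these data known. The table itself holds locus tags without gene names, and the names *DAS1* and *DAS2* come with the selection of these tags. Cell pellets of 9 fermentation cultures under methanol induction, collected at 60 h, were sequenced, with 3 replicates for each of 3 groups. The paper describes this fermentation in BMGY/BMMY medium and states the protocol at 28 °C. The groups were the parent at 28 °C (labelled Parent_28, here WT), the oxidative and thermal stress cross-tolerant mutant at 28 °C (G14_28, here the robust mutant at 28 °C) and the same mutant at 37 °C (G14_37, here the robust mutant at 37 °C). Adaptive laboratory evolution of the WT gave the robust mutant, and whether it is a single clone is not given in the sources used here. Both strains carry the lipase gene *RCL* behind the methanol-inducible promoter of *AOX1*, so every library comes from a lipase-producing host. No WT library at 37 °C belongs to the samples analysed, so the temperature comparison exists for the robust mutant alone.

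*P. pastoris* grows on methanol as its carbon source. In its peroxisomes, alcohol oxidase converts methanol to formaldehyde and hydrogen peroxide, and dihydroxyacetone synthase, a transketolase, then joins formaldehyde to xylulose 5-phosphate. The products, dihydroxyacetone and glyceraldehyde 3-phosphate, enter the carbon metabolism of the cell. *DAS1* and *DAS2* therefore encode the enzyme that commits formaldehyde to assimilation, and both are known as strongly methanol-induced genes. Their coding sequences are close paralogs. How reads that fit both copies were counted is not given in the sources used here. The levels of *DAS1* and *DAS2*, their sum and the division of reads between them are uncertain to that extent.

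The values have the form of FPKM, in which reads are set against the length of the gene and the size of the library, so levels can be put side by side between genes. The values lay on steps of whole reads, and both reads and lengths could be recovered from them. *DAS1* and *DAS2* had the same recovered coding length of 2124 bases, and a single locus tag lies between their numbers. In the RefSeq gene table of strain GS115 (assembly ASM2700v1), which shares 0 locus tags with the deposited table and gives no symbols beyond its own tags, 4 genes have a length of 2124 bases. Of these, 2 lie on chromosome 3 and have 1 gene between them. The other genes of the methanol pathway could not be paired with locus tags from these sources and were not analysed here by name.

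The recovered reads ranged from 13131114 to 15945469 per library. Each library had at least 124013 reads on *DAS1* and at least 180646 reads on *DAS2*, so counting error was small relative to the spread between replicates. No pair of replicates agreed within sampling noise. Over the reads of all features, the chi-square divided by its degrees of freedom was 3.85 to 8.59 for pairs without replicate 1 at 37 °C. It was 48.7 and 49.9 for the pairs that involve replicate 1 at 37 °C, so this library stood apart from the others of its group. The log2 fold changes of *DAS1* and *DAS2* that involve 37 °C are given with and without it. Results for other features at 37 °C are given with it alone. As the study describes biological replicates without further detail, p-values measure the spread between these cultures. In such bulk samples, fewer cells that express a gene and less RNA per cell cannot be told apart.

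*DAS2* was expressed at a higher level than *DAS1* in each of the 9 libraries. In the WT, *DAS1* had 7718, 7957 and 8147 FPKM in replicates 1 to 3, a mean of 7941 ± 215 FPKM (SD, n = 3). *DAS2* had 14826, 14742 and 15495 FPKM in the same libraries, a mean of 15021 ± 413 FPKM (SD, n = 3). Both genes thus belonged to the most abundant transcripts of the methanol-grown parent, with *DAS2* at rank 3 of all features in each replicate and *DAS1* at rank 12 or 13.

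In the robust mutant at 28 °C, the 3 replicates had 7639, 7820 and 7391 FPKM of *DAS1*, a mean of 7617 ± 216 FPKM (SD, n = 3). Those of *DAS2* were 12924, 12714 and 11884 FPKM, a mean of 12508 ± 550 FPKM (SD, n = 3). The *DAS1* values overlapped those of the WT, whereas the *DAS2* values all lay below the lowest WT value. *DAS1* held rank 10 in each of these libraries and *DAS2* rank 4 or 5.

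In the robust mutant at 37 °C, both genes were lower than in any library at 28 °C. *DAS1* had 4064, 3431 and 3406 FPKM, a mean of 3633 ± 373 FPKM (SD, n = 3), and *DAS2* had 6111, 4970 and 5119 FPKM, a mean of 5400 ± 620 FPKM (SD, n = 3). Replicate 1, the library that stood apart, had the highest value of its group for both genes. The coefficient of variation at 37 °C was 10.3% for *DAS1* and 11.5% for *DAS2* with replicate 1 included. In the groups at 28 °C it was 2.71% to 4.40%. Replicates 2 and 3 at 37 °C lay close together for both genes, so the wider spread came mostly from replicate 1. Despite the lower levels, *DAS1* remained at rank 11 or 12 and *DAS2* at rank 5 or 6 of all features.

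**Figure D1:**
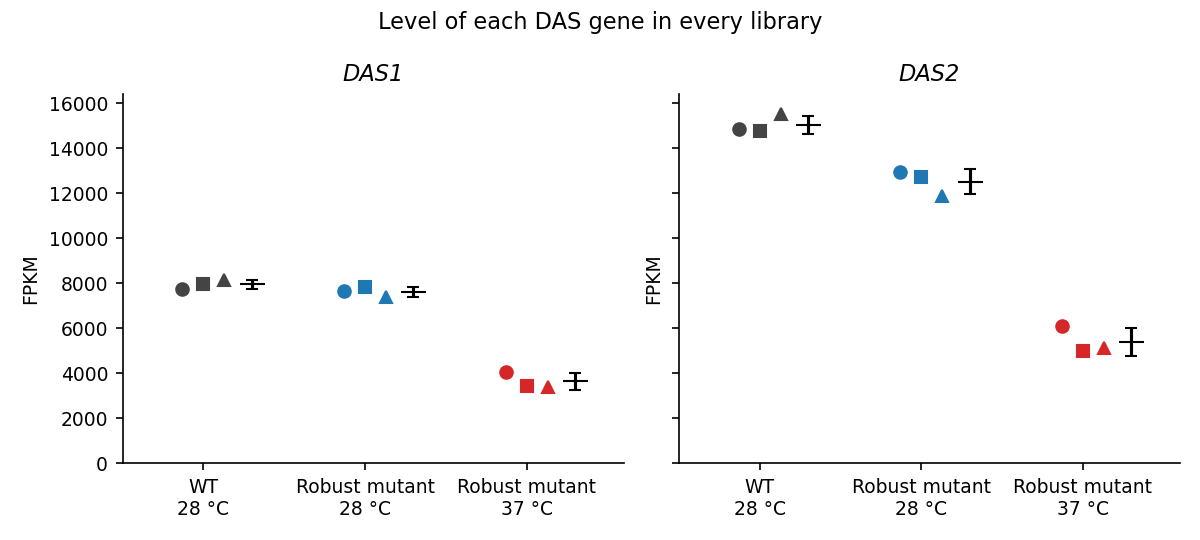
FPKM of *DAS1* (left) and *DAS2* (right) in each of the 9 libraries, by group. Circles, squares and triangles are replicates 1, 2 and 3, and the bar beside them is the mean with the SD. The 37 °C values, at most 4064 FPKM for *DAS1* and 6111 FPKM for *DAS2*, lie below every value at 28 °C.

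The first comparison asked how the 2 strains differ under identical methanol conditions at 28 °C. *DAS2* fell in the robust mutant to 0.832 times its WT level, a log2 fold change of -0.26 (standard error 0.056, 95% interval -0.39 to -0.14, adjusted p = 0.0028 from limma). *DAS1* had a log2 fold change of -0.06 (standard error 0.05), with a 95% interval from -0.17 to 0.05 and an adjusted p of 0.312 from limma, so a difference was not detected and a decrease beyond 0.17 on the log2 scale lies outside the interval. These fold changes are on the scale of log2(FPKM + 1), on which the pseudocount is immaterial for levels this high.

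A decrease of this kind was common among the 5448 features tested. Of these, 36.7% were lower in the robust mutant with an adjusted p under 0.05, and 39.1% were lower with groups that did not overlap. The call of *DAS2* was thus a common one, and 27.3% of all features had a log2 fold change below that of *DAS2*, against 47.4% for *DAS1*. The median log2 fold change of all features was -0.04. The *DAS2* call depended on the estimate of spread, as the adjusted p was 0.0514 with the libraries at 37 °C in the same fit. The direction for *DAS1* depended on the scaling between libraries, since its log2 fold change was 0.042 with libraries scaled to equal summed FPKM, where the median of all features was 0.06 and 1458 of 3555 called features were lower, in place of 1997 of 3612. Relative to the median, *DAS1* was at -0.02 and *DAS2* at -0.23 under both scalings.

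The second comparison asked how expression in the robust mutant differed between the temperatures. *DAS1* fell at 37 °C to 0.476 times its level at 28 °C, a log2 fold change of -1.07 (standard error 0.12, 95% interval -1.34 to -0.80, adjusted p = 7.66e-05 from limma). *DAS2* fell to 0.430 times its level, a log2 fold change of -1.22 (standard error 0.14, 95% interval -1.53 to -0.90, adjusted p = 8.89e-05 from limma). For both genes, each of the 3 replicates at 37 °C lay below each of the 3 at 28 °C. Without replicate 1 at 37 °C, the log2 fold changes were -1.16 for *DAS1* and -1.31 for *DAS2*, with adjusted p-values of 4.44e-06 and 4.81e-06 from limma.

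Among the 5459 features tested between the temperatures, 36.2% were lower at 37 °C with an adjusted p under 0.05, and 38.4% were lower with groups that did not overlap. A log2 fold change under -1 together with an adjusted p under 0.05, which both genes had, was reached by 7.05% of features. Of all features, 6.08% had a log2 fold change below that of *DAS1* and 4.65% below that of *DAS2*, so both genes lie in the lower tail of the changes with temperature.

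The size of this decrease depended on the scaling. The library sizes behind the deposited values were 0.874 to 0.925 times the recovered reads at 28 °C and 1.15 to 1.23 times at 37 °C. The summed FPKM was 707354 to 790873 at 37 °C against 958893 to 1003485 in the robust mutant at 28 °C. With libraries scaled to equal summed reads, the median log2 fold change of all features moved from -0.02 to 0.36, and 887 of 4283 called features were lower at 37 °C, in place of 1977 of 3787. Under that scaling the log2 fold changes were -0.68 for *DAS1* and -0.82 for *DAS2*, no longer beyond -1. Relative to the median of all features, *DAS1* was at -1.05 with the deposited scaling and at -1.04 with summed reads, and *DAS2* was at -1.19 and -1.18.

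The third comparison, of the robust mutant at 37 °C with the WT at 28 °C, changes strain and temperature together and shares its libraries with the other comparisons. *DAS1* fell to 0.456 times the WT level (log2 fold change -1.13, standard error 0.11, adjusted p = 3.32e-05 from limma). *DAS2* fell to 0.358 times the WT level (log2 fold change -1.48, standard error 0.13, adjusted p = 1.61e-05 from limma). Among the 5451 features tested, 39.1% were lower with an adjusted p under 0.05, 40.9% were lower without overlap of the groups, and 8.48% had a log2 fold change under -1 together with an adjusted p under 0.05, as both genes did. Without replicate 1 at 37 °C, the log2 fold changes were -1.22 and -1.57. With equal summed FPKM the log2 fold changes were -0.61 for *DAS1* and -0.96 for *DAS2*, no longer beyond -1. The median of all features was then 0.47, and 831 of 4520 called features were lower, in place of 2134 of 3939. With equal summed reads the log2 fold changes were -0.685 for *DAS1* and -1.03 for *DAS2*, so *DAS2* stayed beyond -1 under that scaling.

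**Figure D2:**
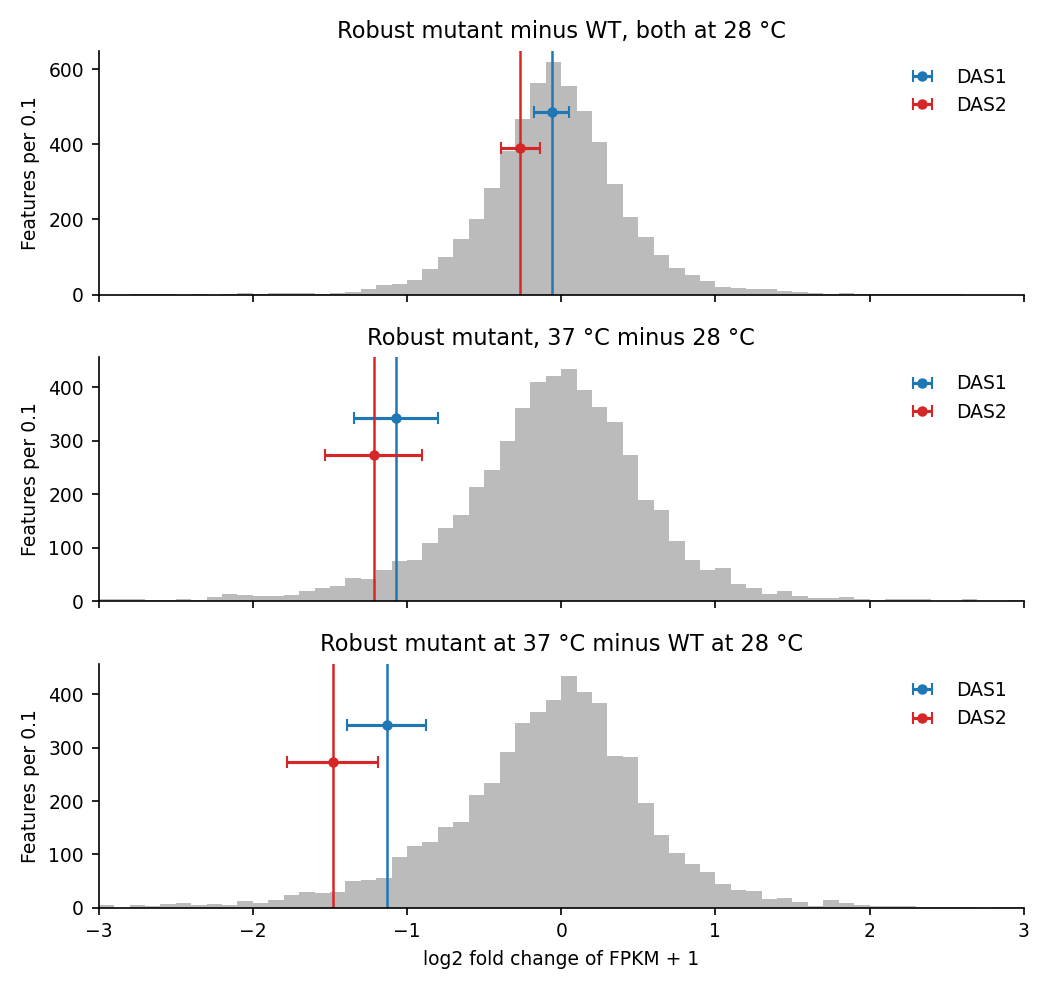
Distribution of log2 fold changes over all tested features (grey bars, number of features per bin) in the 3 comparisons, with *DAS1* (blue) and *DAS2* (red) as lines and their 95% intervals from limma. Between 2 and 31 features per comparison lie beyond the axis. Between the strains at 28 °C, *DAS1* sits near the middle, with 47.4% of features below it, and *DAS2* lower, with 27.3% below it. Both genes sit in the lower tail in both comparisons that involve 37 °C.

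Because both genes have the same coding length, their ratio within a library is a ratio of reads and is free of the scaling between libraries. The *DAS2* to *DAS1* ratio was 1.92, 1.85 and 1.90 in the WT, a mean of 1.89 ± 0.035 (SD, n = 3). In the robust mutant at 28 °C it was 1.69, 1.63 and 1.61, a mean of 1.64 ± 0.044 (SD, n = 3). At 37 °C it was 1.504, 1.449 and 1.503, a mean of 1.49 ± 0.032 (SD, n = 3). The 3 groups did not overlap, and the ratio was lower in the robust mutant than in the WT and lower again at 37 °C. Here replicate 1 at 37 °C was not set apart from replicate 3. Among single features, 39.1% were lower without overlap between the strains and 38.4% between the temperatures on the deposited scaling. How often the ratio of 2 other features separates the groups was not counted.

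On the log2 scale, the *DAS1* to *DAS2* ratio was 0.20 higher in the robust mutant than in the WT at 28 °C (standard error 0.027) and 0.14 higher at 37 °C than at 28 °C in the robust mutant (standard error 0.029). Between the robust mutant at 37 °C and the WT the difference was 0.35 (standard error 0.024). A two-sided exact permutation test gave p = 0.1 for each of these 3 comparisons, also after Benjamini-Hochberg adjustment over the 3, which is the smallest p that 3 libraries against 3 allow. With each replicate left out in turn, the differences stayed from 0.19 to 0.23, from 0.12 to 0.16 and from 0.33 to 0.36. A change in how reads that fit both paralogs were assigned would move this ratio, and its part in the result was not tested.

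The pair together took a sizeable part of each library. Reads on *DAS1* and *DAS2* made up 4.20%, 4.24% and 4.39% of the recovered reads in the WT libraries, and 3.93%, 3.93% and 3.79% in the robust mutant at 28 °C. At 37 °C they made up 2.49%, 2.19% and 2.19%. Exact binomial 95% intervals, which cover counting error alone, were 4.38% to 4.40% for the highest of these shares and 2.18% to 2.19% for the lowest. The share was thus lower in each robust mutant library than in each WT library, and lower at 37 °C than in each library at 28 °C. Such separation was common on the deposited scaling, at 39.1% of features between the strains and 38.4% between the temperatures. It was not counted for shares of reads. *DAS1* alone held 1.48 ± 0.038% of the reads in the WT and 1.47 ± 0.023% in the robust mutant at 28 °C (SD, n = 3 each), while *DAS2* held 2.80 ± 0.070% and 2.41 ± 0.069% (SD, n = 3 each).

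**Figure D3:**
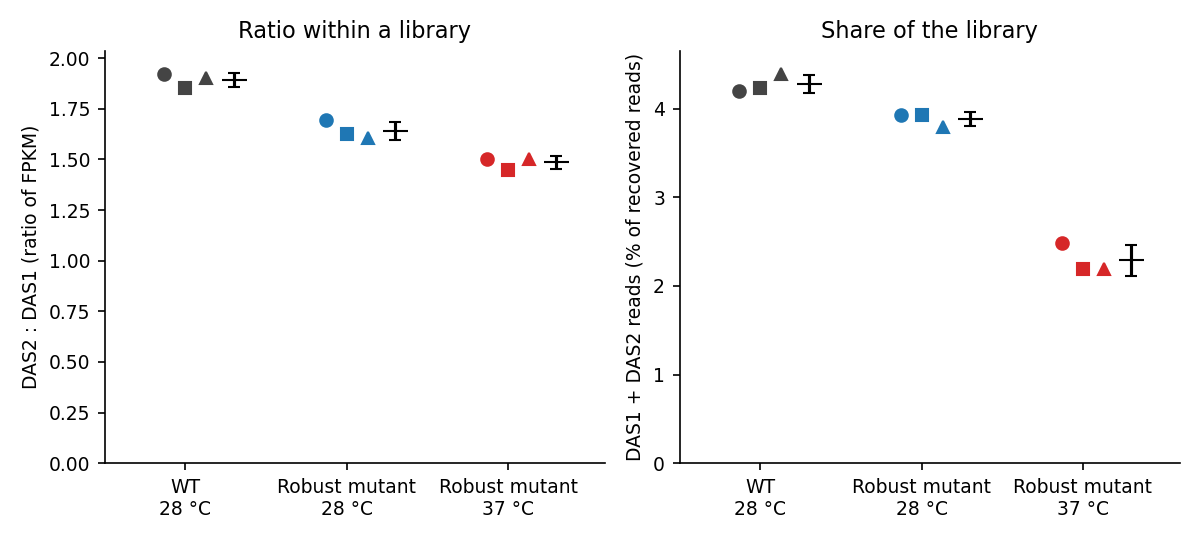
Left, *DAS2* to *DAS1* ratio of FPKM in each library. Right, reads on both genes as a percentage of the recovered reads of the library. Symbols are replicates 1 (circle), 2 (square) and 3 (triangle), with the mean and SD beside them. The ratio steps down from 1.89 to 1.64 to 1.49 over the groups, and the share of reads from 4.28% to 3.88% to 2.29%.

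Many of the most abundant transcripts were lower at 37 °C along with the *DAS* genes. Besides *DAS1* and *DAS2*, 18 features belong to the 20 with the highest mean FPKM over the 9 libraries, a list drawn up after the levels had been seen. Between the temperatures, 14 of the 18 were lower and 1 was higher by the same test as above, where 36.2% of all features were lower. The median over the 18 was -1.06 on the log2 scale, against -0.02 for all features. These counts and medians are on the deposited scaling. With equal summed reads the median of all features was 0.36, and the 18 were not examined under that scaling. As 6 of the 9 libraries behind the ranking are from 28 °C, features that are high at 28 °C and lower at 37 °C enter this list more readily, so its counts and medians are a description alone. Of these 18, 9 had a log2 fold change below that of *DAS1* and 7 below that of *DAS2*. Between the strains at 28 °C, 9 of the 18 were lower and 3 higher, where 36.7% of all features were lower, and their median was -0.16 against -0.04 for all features.

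The closest match to both genes over the 9 libraries was sought by the root mean square difference of log2(FPKM + 1), after each feature was centred on its own mean. Among 5313 other features with a mean of at least 5 FPKM in every group, locus tag CHR3-0094 came first, with a difference of 0.05 from *DAS1* and 0.11 from *DAS2*. It had 4777 ± 69 FPKM in the WT, 4335 ± 207 FPKM in the robust mutant at 28 °C and 2040 ± 184 FPKM at 37 °C (SD, n = 3 each). Locus tag CHR4-0276 came next, with differences of 0.085 and 0.082, and fell from 668 ± 23 to 316 ± 31 FPKM between the temperatures (SD, n = 3 each). The sources used here name neither tag.

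*DAS1* and *DAS2* themselves differed by 0.15 on this measure. There were 107 other features nearer to *DAS1* than *DAS2* was, and 56 nearer to *DAS2* than *DAS1* was. The paralogs were therefore alike in profile without being each other's closest match. All libraries share one scaling, and the profiles are dominated by the step between the temperatures, so likeness here is a description of 9 values per feature.

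The decrease at 37 °C was also seen in the tag between the pair and in the tag before *DAS2* in number, but not in the tags after *DAS1*. The locus tag between *DAS2* and *DAS1* had 130, 135 and 147 FPKM in the WT and 125, 135 and 142 FPKM in the robust mutant at 28 °C, with overlapping values. At 37 °C it had 66.9, 74.1 and 75.2 FPKM, below every library at 28 °C. Its log2 fold change between the temperatures was -0.89 (standard error 0.07, adjusted p = 1.12e-05 from limma), and between the strains it was -0.04 (adjusted p = 0.632 from limma). With a mean of 137 FPKM in the WT, this tag was far less abundant than *DAS1* and *DAS2* on either side. The tag before *DAS2* fell from 2600 ± 83 FPKM in the robust mutant at 28 °C to 1070 ± 96 FPKM at 37 °C (SD, n = 3 each). On the log2 scale this was a change of -1.28 (adjusted p = 6.09e-06 from limma). Unlike the tag between the pair, this tag was not planned to be described singly.

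Over the 20 tested tags whose numbers lie within 10 of either gene, 6 were lower at 37 °C and 7 were higher by the limma test on the deposited scaling. Over all 5459 features, 1977 were lower and 1810 higher, so these counts are near the background. Over these tags the median was -0.08 on the log2 scale, against -0.02 for all features, and 2 of them had a decrease beyond 1 on the log2 scale. These were the tag before *DAS2* and CHR3-0343, which had the largest decrease, -1.43 (adjusted p = 7.26e-06 from limma). CHR3-0348, which lies between those tags in number, was at -0.06 (adjusted p = 0.831 from limma). A run of 6 consecutive tags directly after *DAS1* in number was higher at 37 °C. Their log2 fold changes were 0.46 to 2.32 between 28 °C and 37 °C in the robust mutant and -1.07 to -0.32 between the strains at 28 °C. These comparisons share the libraries of the robust mutant at 28 °C, so low values there enter both with opposite signs. Between the robust mutant at 37 °C and the WT, the values were 0.13 to 1.77, and 3 of the 6 had an adjusted p under 0.05 from limma. These 6 tags had group means of 1.58 to 152 FPKM, far below *DAS1*, and the run was picked out for this pattern after its values had been seen. Between the strains, 11 of the 20 tags were lower, the 6 of that run among them, and 3 were higher, where 36.7% of all features were lower. The median over the 20 was -0.24, against -0.04 for all features.

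**Figure D4:**
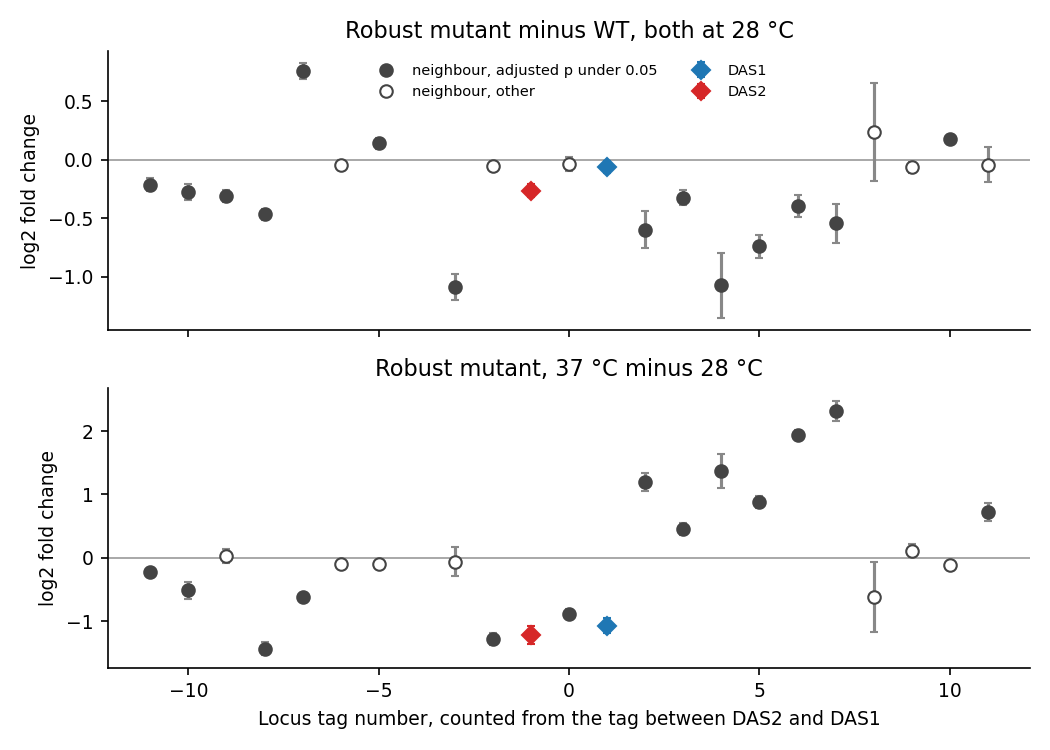
log2 fold changes of *DAS1* (blue diamond), *DAS2* (red diamond) and the 20 tested neighbouring locus tags (grey circles), by tag number counted from the tag between the pair, for the strains at 28 °C (top) and for the temperatures in the robust mutant (bottom). Filled circles have an adjusted p under 0.05 from limma and bars are standard errors. At 37 °C the pair and the tag between them lie from -1.22 to -0.89, while the 6 tags after *DAS1* lie from 0.46 to 2.32.

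Over the groups, *DAS2* stood in the order WT, robust mutant at 28 °C and robust mutant at 37 °C, with no overlap between neighbours in that order. Lower values without overlap were common, at 39.1% of features between the strains and 38.4% between the temperatures. *DAS1* stood in the same order by its means, but the WT and the robust mutant at 28 °C did not differ beyond their spread.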

How the data were processed

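The sequencing company of the study made the libraries and aligned the reads, and the submitters' processing notes name CASAVA, HISAT2 2.0.5 and featureCounts 1.5.0-p3. The genome build, the annotation and the handling of reads that fit more than 1 gene are not given in the sources used here. The authors deposited 1 table of 5557 features, whose unit was inferred as FPKM from the values. Whole reads were recovered for 5516 features, with 100.0% of the 49103 values above 0 within 0.05 of a whole read, and 98.2% of the recovered lengths are multiples of 3.

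Groups were compared on log2(FPKM + 1) by limma 3.58.1 with an intensity trend (R 4.3.3), for features with a mean of at least 1 FPKM in either group. Benjamini-Hochberg adjustment ran over all features tested in a comparison. Ratios were compared by exact permutation (scipy 1.17.1), and the summed share of both genes was given without a test. The fit and the recovery of reads were tested on simulated data. Other features were named as the 2 closest in profile, and neighbours as the tags within 10 numbers. The order of tags was not checked against coordinates. The genes and lists were chosen with earlier results of these data known. Alternatives were a pseudocount of 0.1, no filter, a fit of all groups together, other scalings, no trend, the replicate number as a block, limma-voom on recovered reads and each replicate left out. Scaling to summed reads and shares of reads were added after seeing the data.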

Additional observations from a re-analysis of the deposited data

How the results depend on the processing

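The decreases of *DAS1* and *DAS2* at 37 °C kept their direction and an adjusted p under 0.05 from limma under each alternative run. The differences in their ratio kept their direction too, but the alternatives could not have reversed it. The groups did not overlap in the ratio, the replicate block leaves the difference as it was, and the pseudocount is immaterial at these levels. For *DAS1* the log2 fold changes between the temperatures ranged from -1.07 to -0.66 over the settings and from -1.16 to -1.03 with each replicate left out, and for *DAS2* from -1.22 to -0.80 and from -1.31 to -1.16. The smallest decreases came from scaling to equal summed FPKM. Between the strains, *DAS1* turned to 0.042 with equal summed FPKM and to 0.039 when the 2 genes and the 10 highest other features were left out of the sums, with no call in either case. *DAS2* stayed at -0.26 but its adjusted p from limma rose to 0.0514 with all 3 groups in one fit. The standard error of that fit was 0.11 and includes the wider spread at 37 °C, which came mostly from replicate 1. Over the alternatives, that adjusted p ranged from 0.000126 to 0.0514. As a share of recovered reads in place of summed FPKM, the summed *DAS* share moved from -0.130, -0.820 and -0.950 percentage points to -0.394, -1.59 and -1.99 in the 3 comparisons, which follows from the denominator. With equal summed FPKM, 1458 of 3555 called features were lower in the robust mutant than in the WT, in place of 1997 of 3612.

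With the replicate number as a block, the log2 fold changes were again -0.26 for *DAS2* between the strains (adjusted p = 0.0151 from limma), -1.07 and -1.22 between the temperatures, and 3569, 3845 and 3924 features were called, in place of 3612, 3787 and 3939. The study describes no pairing, so the numbers were not treated as pairs. Deviations of same-numbered libraries correlated from -0.13 to 0.25 across features. With 3 libraries per group, these correlations cannot show whether the numbers were pairs. At this depth, counting error in the *DAS* values is small beside the spread between the 3 replicates per group. The *DAS* values also depend on the scaling and on how reads that fit both paralogs were assigned, which was not tested.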
